A study of Schizosaccharomyces pombe with 72 samples.

Results

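The comparison concerned 6 of the 72 libraries of the series, namely the 3 libraries labelled hrp1Δhrp3Δprf1Δ and the 3 WT libraries of experiment D of this fission yeast (Schizosaccharomyces pombe) study. They were chosen by their group label and not by any measured value. The triple mutant carried deletions of hrp1 (marked with kanMX), hrp3 and prf1, and WT carried none of them, while both strains shared mating type h+ and the alleles ade6-M216, ura4-D18 and leu1-32. Experiment D also held 3 libraries each of prf1Δ and of hrp1Δhrp3Δ (hrp1 marked with kanMX there too) in the same background, which are used where they show how the triple mutant differs. Cells were grown in rich YES medium at 32 °C to mid-log phase (OD600 about 0.5), and polyadenylated RNA was sequenced from strand-specific libraries. The sources name 1 strain for each genotype, so the p-values below measure the spread between libraries and not that between independent strains.

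Hrp1 and Hrp3 are the paralogous CHD-family remodelers of fission yeast, ATP-driven enzymes that space nucleosomes over gene bodies. Prf1, the ortholog of budding yeast Rtf1, is a factor that travels with elongating RNA polymerase II and is needed for ubiquitylation of histone H2B. Where chromatin over a gene body is not restored after transcription, cryptic start sites inside the gene can fire, and transcripts from the opposite strand are called antisense transcripts. The design asks what happens to sense and antisense transcript levels when both remodelers and Prf1 are lost together. Sense counts are the counts on the annotated strand of a protein-coding gene, and its antisense feature holds the counts on the reverse complement of its coding sequence.

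The libraries differed widely in depth and content. The libraries labelled hrp1Δhrp3Δprf1Δ held 1285133, 3657 and 2245936 estimated counts, against 4245907, 2678803 and 1972497 in WT (replicates 1, 2 and 3, the order used for every value below). Replicate 2 of the triple mutant had counts at 191 of 5112 protein-coding genes, and 30.9% of its counts lay on rRNA entries, against 0.505% to 1.91% in the other 11 libraries of experiment D. In that library 1 count is 273 CPM (counts scaled to a library total of 1000000), so a value of 0 there says only that a feature lay below about 820 CPM, the value of 3 counts. Replicates 1 and 3 of the triple mutant are called its deep libraries below. WT replicate 3 leaned towards short genes. Genes with a coding length under 600 bases took 69.1% of its sense counts, against 21.0% and 23.6% in WT replicates 1 and 2, and ribosomal protein genes took 50.3%, against 17.1% and 21.3%. Its largest entries were ubi3 (3.00% of counts), rps21 (2.31%), ubi5 (2.01%), rpl22 (1.97%) and rps502 (1.67%), all genes of ribosomal proteins or of their fusions with ubiquitin. The largest entries of triple-mutant replicate 2 were 3 copies of the 28S rRNA gene (5.59% each) and 2 of the 18S gene (4.36% each), which share reads. Replicate 1 of hrp1Δhrp3Δ resembled WT replicate 3 (79.4% of sense counts in such short genes), and it enters the shared estimate of spread. Results are therefore given with all 12 libraries of experiment D in 1 fit, and again without triple-mutant replicate 2 and WT replicate 3, called both atypical libraries below.

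The deleted genes were examined first. Sense counts of hrp3 (SPAC3G6.01) were 0 in all 3 libraries labelled hrp1Δhrp3Δprf1Δ, against 99.9, 102 and 6.08 CPM in WT, at least 93.9-fold lower with a floor of 3 counts over the group. For prf1 (SPBC651.09c) the values were 45.1, 0 and 43.2 CPM in the libraries labelled triple mutant and 153, 128 and 3.04 CPM in WT (log2 fold change −1.75 ± 1.02, adjusted p 0.259), with 61.8, 53.8 and 60.3 CPM in prf1Δ (adjusted p 0.39 against WT), so counts of prf1 remained under both labels that name its deletion. Those of hrp1 (SPAC1783.05) were 64.6, 0 and 31.6 CPM, against 126, 103 and 2.53 CPM in WT (log2 fold change −1.32 ± 0.92, adjusted p 0.346). By its label the prf1Δ strain carries hrp1, and its libraries held 42.1, 46.6 and 40.5 CPM of it. Replicate 1 labelled triple mutant lay above all 3 of them and replicate 3 below, and hrp1 did not separate both groups (log2 fold change 0.13 ± 0.90, adjusted p 1). That comparison thus did not show the deletion of hrp1 that the label names. It did not call hrp3 either (edgeR adjusted p 0.14), so the missing call decides little, and why counts of hrp1 remained was not tested. With hrp1Δhrp3Δ replicate 1 left out along with the WT and triple-mutant libraries described above, both genes were called lower than WT (hrp1 −1.46, adjusted p 0.0138, and prf1 −1.87, adjusted p 0.000424). The 3 hrp1Δhrp3Δ libraries held 1.35, 13.9 and 23.5 CPM of hrp1. The antisense feature of hrp1 had 21.8, 0 and 14.7 CPM in the libraries labelled triple mutant and no counts in WT, at least 51.2-fold higher. Counts of ura4 (SPCC330.05c) were 0 in every library of experiment D, whose strains carry the ura4-D18 allele. Because of hrp1 and prf1, every mutant group is called by its label, prf1Δ and hrp1Δhrp3Δ included, and every direction below is that of libraries so labelled.

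Antisense features took a larger share of the counts in the libraries labelled triple mutant than in WT. The share was 3.64%, 4.92% and 3.75%, with a mean of 4.10% ± 0.710 (SD, n = 3), against 1.23%, 1.12% and 0.692% in WT, with a mean of 1.01% ± 0.284 (SD, n = 3). Every library of the triple mutant lay above every WT library, and the ratio of the means was 4.04 (two-sided exact permutation test p = 0.10, the smallest that 3 against 3 allows, adjusted p = 0.15 over 3 comparisons). Replicate 2 rested on 180 antisense counts in 21 features, with a 95% Wilson interval of 4.27% to 5.67%, which covers counting error only, since PCR copies were not marked. Of these counts 32.2% lay on spt6 (histone chaperone of elongating polymerase), which had 64 sense and 58 antisense counts in that library, and 17.2% on med15, which had 35 and 31. Without both atypical libraries the share was 3.70% ± 0.0742 in the triple mutant and 1.18% ± 0.0733 in WT (SD, n = 2 each), a ratio of 3.14 (exact p = 0.333, the smallest that 2 against 2 allows). With antisense features of genes that overlap a gene on the other strand left out, the share was 2.48% ± 0.887 in the triple mutant and 0.392% ± 0.0490 in WT (SD, n = 3 each), a ratio of 6.31 (exact p = 0.10). The share in the triple mutant did not separate from that in prf1Δ (4.27%, 3.71% and 4.75%, exact p = 0.90), and it lay above that in hrp1Δhrp3Δ (2.96%, 3.19% and 2.96%, ratio 1.35, exact p = 0.10, adjusted p = 0.15). Without triple-mutant replicate 2 the ratio was 1.22 to hrp1Δhrp3Δ (exact p = 0.10) and 0.871 to prf1Δ (exact p = 0.30).

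**Figure D1:**
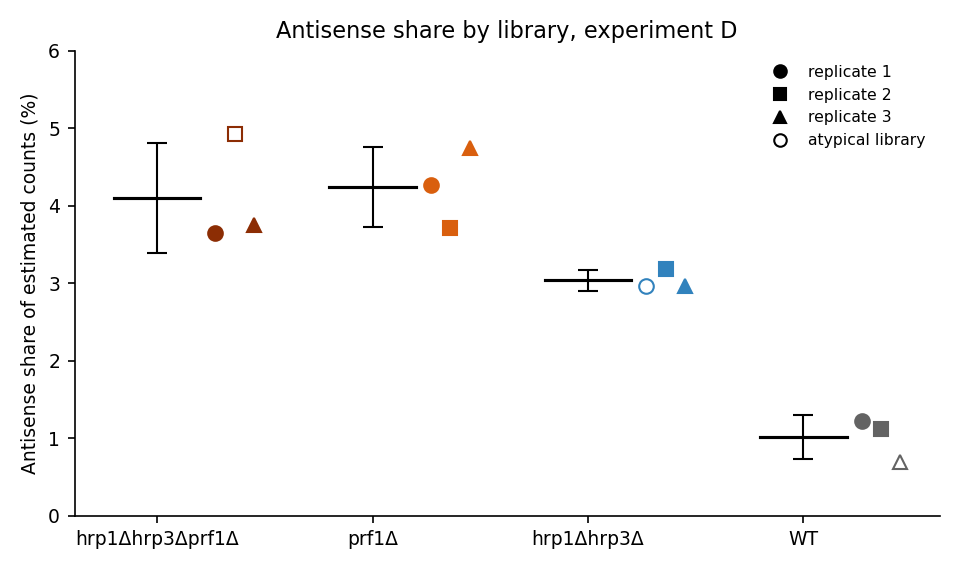
Antisense share of estimated counts (%) in each library of experiment D, by group, with replicates 1, 2 and 3 as circle, square and triangle, atypical libraries open, and the mean ± SD as a bar (n = 3). The 3 libraries labelled hrp1Δhrp3Δprf1Δ lay between 3.64% and 4.92%, above the 3 WT libraries, which lay between 0.692% and 1.23%.

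Antisense features rose across the genome in the libraries labelled triple mutant. Of 3341 antisense features tested with all libraries, 1154 (34.5%) rose and 8 (0.239%) fell at an edgeR adjusted p under 0.05, and the median log2 fold change was 1.99. Without both atypical libraries 1444 of 3952 (36.5%) rose and 5 (0.127%) fell, with a median of 2.55, and 1062 features were called higher both times, 92.0% of the first list and 73.5% of the second. Counting only features of genes with no overlapping neighbour on the other strand, 721 of 1924 rose and 5 fell. In both deep libraries of the triple mutant 2586 antisense features (77.4%) had a higher CPM than in all 3 WT libraries, and 27 (0.808%) had a lower one. The median over antisense features exceeded that over sense genes by 2.86 on the log2 scale, and by 3.03 without both atypical libraries. The number called higher or lower also depended on other libraries, with 641 called without triple-mutant replicate 1, 534 without replicate 3, 635 without WT replicate 1, 661 without WT replicate 2 and 1803 without hrp1Δhrp3Δ replicate 1, which enters the shared fit, against 1162 in all.

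**Figure D2:**
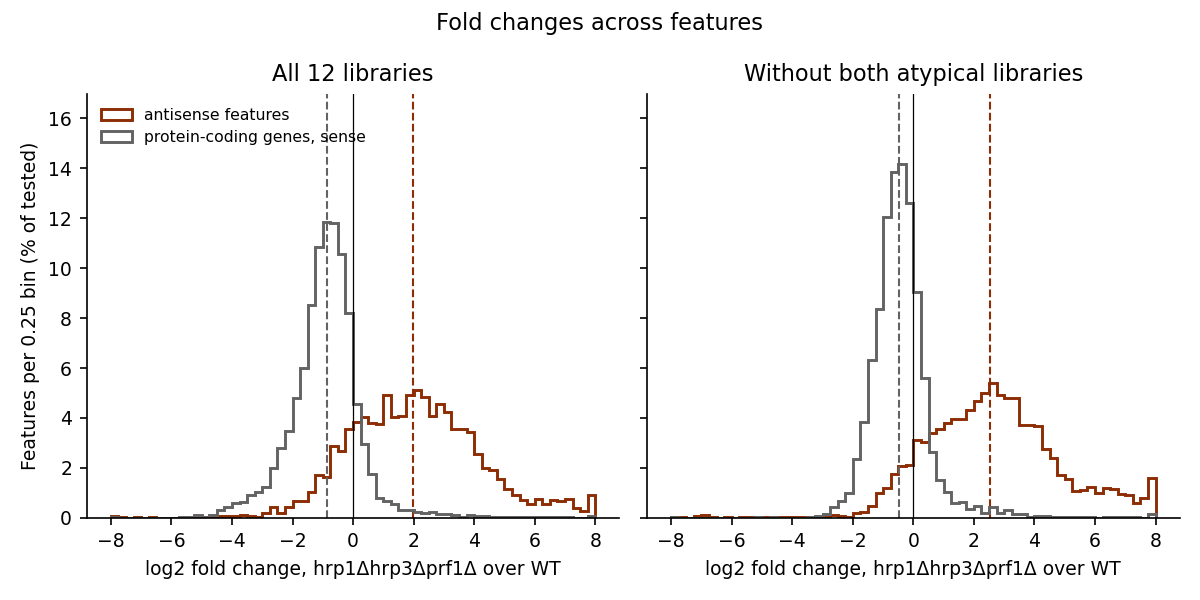
Distribution of log2 fold changes (x axis, libraries labelled hrp1Δhrp3Δprf1Δ over WT, values beyond the axis placed in the end bins) as a percentage of the tested features per bin (y axis), for antisense features and for sense counts of protein-coding genes, with all 12 libraries on the left and without both atypical libraries on the right. Dashed lines mark the medians, which were 1.99 for antisense features and −0.86 for sense genes with all libraries, and 2.55 and −0.48 without both atypical libraries.

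The share of antisense features called higher was set beside the coding length of the host gene. It was 16.7% in the shortest quartile of hosts (102 to 873 bases), 30.2% and 40.3% in the middle quartiles, and 51.0% in the longest (2079 to 14775 bases), and the median log2 fold change was 0.95, 1.90, 2.27 and 2.65 in the same order. Without both atypical libraries the shares were 17.4%, 32.9%, 39.9% and 56.1%. A longer host also collects more antisense counts at an equal density, and the part of this in the share was not tested. By sense level of the host in WT replicates 1 and 2, in CPM per kilobase, the share was 30.3%, 40.5%, 37.0% and 30.4% from the lowest quartile to the highest. The sense counts of hosts whose antisense feature rose had a median log2 fold change of −0.79 (n = 1149), against −0.92 for the other hosts (n = 2124), and without both atypical libraries these were −0.62 (n = 1436) and −0.48 (n = 2449), so the order of the medians turned.

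The 6 antisense loci that the study examined singly, which it chose on data of this series, were all called higher, with and without both atypical libraries. Opposite orc4 (SPBP23A10.13), a subunit of the origin recognition complex, the antisense level was 28.0, 0 and 36.5 CPM in the libraries labelled triple mutant, against 1.41, 1.12 and 0 CPM in WT (log2 fold change 4.30 ± 0.77, adjusted p 0.0028). At taf5 (SPCC5E4.03c), a subunit of the general transcription factor TFIID, it was 12.5, 0 and 18.3 CPM, against 0.942, 0.373 and 0 CPM in WT (log2 fold change 4.11 ± 0.89, adjusted p 0.00622). Both deep libraries lay above all WT libraries at both loci. Antisense to rap1 (SPBC1778.02), a telomere-binding protein, had 7.78, 0 and 22.3 CPM, against 0.707, 0 and 0 CPM in WT (a 50.3-fold ratio of summed CPM with an exact 95% counting interval of 16.4 to 251, adjusted p 0.00364). For atg9 (SPBC15D4.07c), a membrane protein of autophagy, the levels were 21.8, 0 and 28.1 CPM, against 1.65, 0.373 and 0 CPM in WT (log2 fold change 4.19 ± 0.76, adjusted p 0.00296). WT held no counts at the remaining pair of loci. At spb70 (SPCC553.09c), the B subunit of DNA polymerase alpha, the libraries labelled triple mutant held 5.45, 0 and 9.35 CPM, at least 23.5-fold more than WT (adjusted p 0.0028). At crt10 (SPBC27B12.05), a WD repeat protein, they held 4.31, 0 and 5.13 CPM, at least 14.3-fold more (adjusted p 0.00824), and this call was lost without both atypical libraries when the scaling was set on protein-coding genes (adjusted p 0.0549). Triple-mutant replicate 2 had no count at any of the 6, below its limit of detection. The sense counts of the 6 genes were not called in either direction (median log2 fold change −0.66, against −0.86 over all genes). Sense orc4, for example, had 80.9, 0 and 66.8 CPM, against 80.5, 61.6 and 3.04 CPM in WT (log2 fold change −0.13 ± 0.80, adjusted p 0.936).

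In prf1Δ and hrp1Δhrp3Δ, whose comparisons with WT share the WT libraries, antisense features at these loci were above the WT libraries as well. Antisense orc4 had 19.3, 28.4 and 25.1 CPM in prf1Δ and 14.9, 21.4 and 33.7 CPM in hrp1Δhrp3Δ, and antisense taf5 had 12.6, 9.48 and 13.7 CPM in prf1Δ and 54.5, 32.9 and 36.7 CPM in hrp1Δhrp3Δ. Antisense atg9 had 21.8, 23.3 and 25.0 CPM in prf1Δ and 3.60, 11.7 and 12.1 CPM in hrp1Δhrp3Δ. The study also named small meiotic genes nested on the opposite strand of a larger gene. Of these, mfr1 (SPBC1198.12), an activator of the anaphase-promoting complex in meiosis, had 1.56, 0 and 3.56 CPM and no counts in WT, and was called without both atypical libraries (adjusted p 0.0362, at least 8.39-fold higher), while too few counts kept it out of the fit with all libraries. The values of meu27 (SPCC1259.14c) were 19.5, 0 and 34.7 CPM, against 6.12, 0.747 and 0 CPM in WT (adjusted p 0.102), and those of spo6 (SPBC1778.04), a kinase subunit of meiosis, were 6.23, 0 and 10.2 CPM, against 1.88, 5.23 and 1.01 CPM (adjusted p 0.581). Their host genes lam2, tfg2 and chk1 were not called on the sense strand, and the antisense feature of chk1 (SPCC1259.13), the checkpoint kinase that overlaps meu27, rose (8.56, 0 and 11.6 CPM, against 0.942, 0.373 and 0 CPM in WT, log2 fold change 3.53 ± 0.75, adjusted p 0.00588). The meiotic septin spn6 (SPCC188.12) rose on the sense strand (10.9, 0 and 16.0 CPM, against 0.471, 0.747 and 0 CPM in WT, log2 fold change 4.14 ± 1.10, adjusted p 0.0172). The meiotic transcription factor atf21 (SPBC2F12.09c) had 4.32, 0 and 10.8 CPM, against 0.149, 0 and 0 CPM in WT (a 75.5-fold ratio of summed CPM with an exact 95% counting interval of 12.6 to 3081, adjusted p 0.0197), and was lost without both atypical libraries (adjusted p 0.0518).

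**Figure D3:**
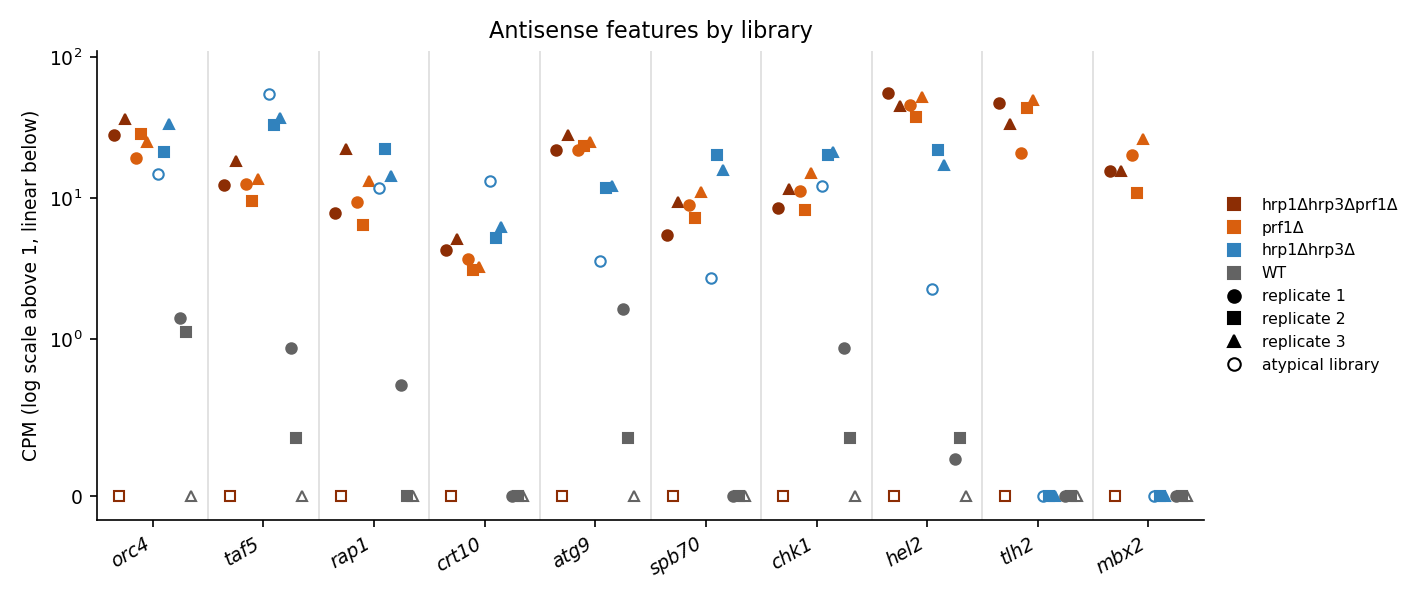
Antisense CPM (y axis, log scale above 1 and linear below) of 10 antisense features (x axis) in each library of experiment D, coloured by group, with replicates 1, 2 and 3 as circle, square and triangle and atypical libraries open. At orc4, replicates 1 and 3 labelled hrp1Δhrp3Δprf1Δ had 28.0 and 36.5 CPM, against at most 1.41 CPM in WT, and at tlh2 and mbx2 the hrp1Δhrp3Δ and WT libraries were at 0.

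The 10 antisense features with the largest rises by the fit without both atypical libraries were called higher in both fits. The largest were opposite utp4 (SPBC19F5.02c, a U3 snoRNP protein of ribosome assembly), with 71.6, 0 and 24.0 CPM, at least 122-fold more than WT, and opposite tlh2 (SPBCPT2R1.08c, a subtelomeric RecQ-type helicase), with 46.8, 0 and 33.5 CPM, at least 114-fold more, and neither had a whole count in any WT library. The tlh2 gene has near-identical subtelomeric copies, so how its counts are split is uncertain. Antisense hel2 (SPCC1223.01, a ubiquitin ligase that acts on stalled ribosomes) had 55.2, 0 and 45.0 CPM in the libraries labelled triple mutant, against 0.236, 0.373 and 0 CPM in WT (a 216-fold ratio of summed CPM with an exact 95% counting interval of 59.0 to 1802, adjusted p 0.00221). Antisense itr1 (SPAC4F8.15, the myo-inositol transporter) had 40.5, 0 and 16.5 CPM, against 0.236, 0 and 0 CPM in WT (a 224-fold ratio of summed CPM with an exact 95% counting interval of 39.2 to 8946, adjusted p 0.00221). Antisense php5 (SPBC3B8.02), a subunit of the CCAAT-binding factor, had 19.5, 0 and 28.9 CPM, against 0, 0 and 0.507 CPM in WT (a 227-fold ratio of summed CPM with an exact 95% counting interval of 39.6 to 9046, adjusted p 0.00619). In each of these the deep libraries labelled triple mutant exceeded every WT library. The others were opposite csx1 (an RNA-binding protein of the stress response, 60.7, 0 and 44.5 CPM, against 0, 0 and 1.52 CPM in WT), pom34 (a nucleoporin, 38.1, 0 and 38.3 CPM, against 0.236, 0 and 0.507 CPM), cdh1 (annotated as an rRNA dimethylase, 41.2, 0 and 47.2 CPM, against 0.236, 0 and 1.52 CPM), tti1 (a co-chaperone subunit) and hrp1. The itr1 and pom34 genes overlap a coding gene on the other strand, whose reads their antisense features can hold. Falls were few. Antisense SPAC323.04 (an ATPase gene that overlaps a neighbour) had 10.9, 0 and 10.2 CPM, against 32.5, 32.5 and 22.8 CPM in WT (log2 fold change −2.53 ± 0.70, adjusted p 0.021). Antisense arh1 (SPBC3B8.01c), next to php5, had 13.2, 0 and 14.7 CPM, against 37.9, 39.2 and 6.59 CPM, and had an adjusted p of 0.0379 without both atypical libraries and 0.0839 with all.

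Antisense rises were counted in lists of genes that were chosen with earlier results of these data known, against 34.5% over all antisense features (36.5% without both atypical libraries). With all libraries that share ran from 16.7% in the shortest quartile of hosts to 51.0% in the longest. The lists were not matched for host length, so differences between them are not to be read apart from length. Of the 11 remodeler ATPase genes, 7 had an antisense feature called higher (mit1, ino80, snf21, snf22, fft2, fft3 and rrp1), and 6 without both atypical libraries. Of 16 heterochromatin and RNA interference genes 7 were called, among them clr2, swi6, chp1, ago1, dcr1 and rik1, and 9 without both atypical libraries. Of 14 exosome and RNA decay genes tested 6 were called, among them dis3, the catalytic nuclease, and mtr4, the helicase of the TRAMP complex. Elongation factor genes had 5 of 19 called (8 of 21 without both atypical libraries). Of the 5, antisense spt6 had 8.56, 15860 (58 counts) and 5.34 CPM in the libraries labelled triple mutant, against 0.942, 0.747 and 2.54 CPM in WT (adjusted p 0.0161), and was lost without both atypical libraries (adjusted p 0.122). In the smaller lists the features called were those of 4 of 10 Sty1-Atf1 stress genes, 3 of 6 iron uptake genes, 3 of 9 Ste11 and mating genes, 2 of 8 heat shock genes, 1 of 9 MBF genes, 1 of 5 Mmi1-controlled genes, 1 of 11 Tf2 elements and 0 of 1 histone gene. Ribosomal protein genes had 6 of 40 called, mug and meu genes, named for their induction in meiosis, 9 of 65, and glycolysis genes 0 of 8 with 0 of 12 without both atypical libraries. Genes nested inside a coding gene on the other strand had 10 of 174 antisense features called higher and a median log2 fold change of 0.07, against 1.99 over all antisense features (19 of 186 and 0.35 without both atypical libraries, against 2.55). The antisense feature of a nested gene lies on the sense strand of its host and can hold the host's reads. Antisense transcripts of nested genes can therefore not be told apart from host transcripts here.

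Fewer genes were called on the sense strand. With all libraries 45 of 4918 protein-coding genes rose (0.915%) and 156 fell (3.17%), with 926 at an unadjusted p under 0.05. The median log2 fold change of sense genes was −0.86 under this scaling, so values below are to be read against that median. With the scaling set on protein-coding genes the median was −0.29, and 66 genes rose (1.34%) and 52 fell (1.06%). Without both atypical libraries 70 of 4959 rose (1.41%) and 117 fell (2.36%) with a median of −0.48, and with the scaling on protein-coding genes as well 88 rose (1.77%) and 39 fell (0.786%) with a median of −0.03. In all 4 of these fits 34 genes were called higher and 25 lower. The calls of both directions numbered 32 without triple-mutant replicate 1, 29 without replicate 3, 116 without WT replicate 1 and 83 without WT replicate 2, against 201 with all libraries. Of the other groups in the fit, leaving out a prf1Δ library gave 91 to 97 calls, hrp1Δhrp3Δ replicate 1 gave 508 and hrp1Δhrp3Δ replicate 3 gave 125. In both deep libraries of the triple mutant 817 genes (16.6%) had a higher CPM and 451 (9.17%) a lower CPM than in all 3 WT libraries.

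The gene with the largest rise was nmt1 (SPCC1223.02), an enzyme of thiamine synthesis that is repressed by thiamine in the medium. It had 62.3, 0 and 61.8 CPM in the libraries labelled triple mutant, against 0.106, 0 and 0 CPM in WT, at least 184-fold more (adjusted p 0.00221), with 18.0, 19.4 and 32.4 CPM in prf1Δ and 2.71, 2.49 and 3.61 CPM in hrp1Δhrp3Δ. Its neighbour in the annotation is hel2, whose antisense feature is among the largest rises. The formaldehyde dehydrogenase gene fmd2 (SPBC1198.01) had 55.2, 0 and 46.1 CPM, against 0.0666, 0 and 1.52 CPM in WT (a 147-fold ratio of summed CPM with an exact 95% counting interval of 49.4 to 719, adjusted p 0.00685). The second plasma membrane proton ATPase gene, pma2 (SPCC1020.01c), had 70.8, 0 and 111 CPM, against 0, 0.747 and 1.01 CPM in WT (log2 fold change 6.24 ± 1.33, adjusted p 0.00589). Among genes of meiosis, the RNA-binding protein gene mde7 (SPCC320.07c) had 21.8, 0 and 14.2 CPM and no counts in WT, at least 50.3-fold, and the recombinase gene dmc1 (SPAC8E11.03c) had 13.9, 0 and 26.7 CPM, against 0.942, 0 and 0 CPM in WT (log2 fold change 4.83 ± 1.02, adjusted p 0.00544). The mde7 gene is nested inside a coding gene on the other strand, whose antisense transcripts its sense counts can hold. The group of rises further held a hydroxyacid dehydrogenase gene SPAC186.02c (48.2, 0 and 72.6 CPM, against 0.942, 0 and 0 CPM in WT), a flavin oxidoreductase gene SPBC23G7.10c (57.6, 0 and 73.9 CPM, against 1.65, 0 and 0 CPM) and SPAPB1A11.06 (189.9, 0 and 139 CPM, against 5.18, 4.48 and 1.52 CPM), all called in both fits. In each of these genes both deep libraries labelled triple mutant exceeded every WT library. SPBPB21E7.02c was also called (17.9, 0 and 15.6 CPM, against 1.41, 0.373 and 0 CPM), while sense tlh2 (262, 0 and 479 CPM, against 7.07, 28.7 and 17.7 CPM in WT) was called without both atypical libraries (log2 fold change 4.16 ± 0.90, adjusted p 0.0134) and not with all (adjusted p 0.0838). Of these 10 genes, 9 were called with all libraries, and 8 without both atypical libraries with the scaling on protein-coding genes.

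The largest falls, after hrp3, were in genes of varied function. The ribosomal protein gene rpl1603 (SPBC2G2.05) had 8.56, 0 and 14.2 CPM in the libraries labelled triple mutant, against 80.5, 96.3 and 257 CPM in WT (log2 fold change −5.29 ± 1.12, adjusted p 0.00558). The log2 fold change was −3.14 without both atypical libraries (adjusted p 0.0081), and the call was lost there when the scaling was set on protein-coding genes. The rpl1603 gene is nested inside a coding gene on the other strand, whose antisense transcripts its sense counts can hold. The nucleocytoplasmic transport chaperone gene srp40 (SPBC1711.05) had 36.6, 0 and 41.9 CPM, against 218, 240.0 and 372 CPM in WT (log2 fold change −4.38 ± 1.04, adjusted p 0.00996). With both atypical libraries left out, it fell by 2.74 (adjusted p 0.00953). For hdd1 (SPCC4G3.17), a phosphohydrolase gene, the values were 13.2, 0 and 15.6 CPM, against 80.5, 106 and 78.6 CPM in WT (log2 fold change −3.79 ± 0.80, adjusted p 0.00553). For ibp1 (SPBC839.07), a phosphatase gene of the Cdc25 family, they were 9.34, 0 and 8.90 CPM, against 53.7, 49.6 and 67.9 CPM (log2 fold change −3.95 ± 0.88, adjusted p 0.00708). In these 4 genes both deep libraries lay below all 3 WT libraries. Log2 fold changes with all libraries carry the scaling factors of triple-mutant replicate 2 (8.35) and WT replicate 3 (0.264). For rpl1603 and srp40 the falls were smaller without these libraries. No counts of rgp1 (SPBC23E6.08) were found in the libraries labelled triple mutant, against 29.1, 21.4 and 0 CPM in WT, at least 24.0-fold lower (adjusted p 0.0296). SPAC688.12c (1.67, 0 and 11.7 CPM, against 33.4, 45.5 and 32.9 CPM in WT), the DNA repair endonuclease gene SPAC1F12.06c (3.11, 0 and 4.45 CPM, against 26.1, 18.3 and 5.58 CPM) and SPBC651.04 (4.67, 0 and 2.67 CPM, against 19.5, 20.5 and 3.04 CPM) also fell. The tRNA-modifying enzyme gene rit1 (SPAC3F10.06c) had 1.56, 0 and 4.01 CPM, against 16.5, 17.9 and 0 CPM in WT, and was called without both atypical libraries (adjusted p 0.0386) and not with all (0.0973). Of these 10 falls, hrp3 included, 9 were called with all libraries, and 3 without both atypical libraries when the scaling was set on protein-coding genes.

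**Figure D4:**
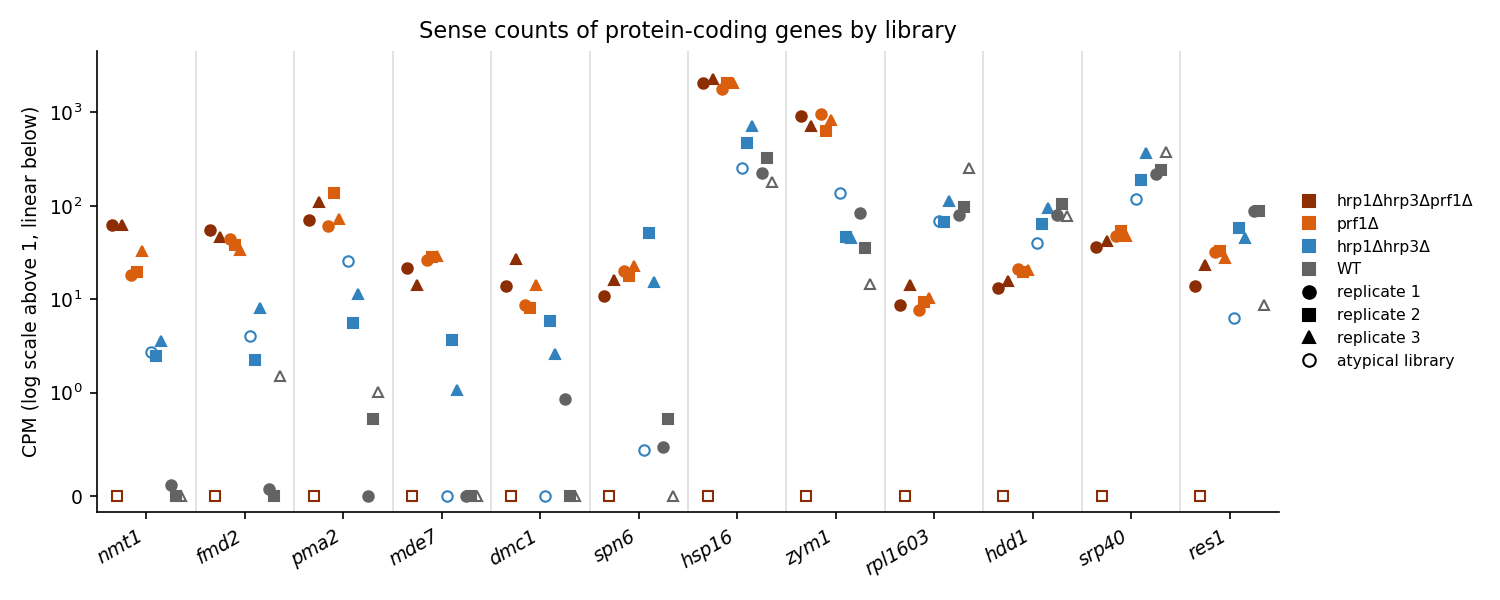
Sense CPM (y axis, log scale above 1 and linear below) of 12 protein-coding genes (x axis) in each library of experiment D, coloured by group, with replicates 1, 2 and 3 as circle, square and triangle and atypical libraries open. Replicates 1 and 3 labelled hrp1Δhrp3Δprf1Δ had 62.3 and 61.8 CPM of nmt1, against at most 0.106 CPM in WT, and 13.2 and 15.6 CPM of hdd1, against at least 78.6 CPM in WT. Replicate 2 of the triple mutant is at 0 for every gene shown, below its limit of about 820 CPM for 3 counts.

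On the sense strand the largest of the gene lists outside the ribosomal proteins were the mug and meu genes and the nested genes. Among the mug and meu genes 6 of 88 rose and 1 fell with all libraries (median −0.20, against −0.86 over all genes), and 12 of 94 rose and none fell without both atypical libraries (median 0.00, against −0.48), compared with 0.915% and 1.41% of all genes that rose. Among them mug97 (SPBC146.11c) had 18.7, 0 and 17.8 CPM in the libraries labelled triple mutant, against 1.65, 0.747 and 0.507 CPM in WT (log2 fold change 3.31 ± 0.69, adjusted p 0.00496). The BAR adaptor protein gene mug137 (SPCC1919.11) had 10.1, 0 and 13.4 CPM, against 1.18, 0.373 and 0 CPM (log2 fold change 3.52 ± 0.75, adjusted p 0.00588). Both overlap a coding gene on the other strand. The meiotic regulators that Mmi1 marks for decay (6 genes) and the Ste11 and mating genes (12 tested) had none called, and mei4, for example, had 7.78, 0 and 12.9 CPM, against 6.83, 6.35 and 0.507 CPM in WT (adjusted p 0.729). Of genes nested inside a coding gene on the other strand 13 of 189 rose and 4 fell with all libraries (12 of 192 and 5 without both atypical libraries). Those called included mde7, mug97, mug137 and SPCC1442.11c, which were higher, and rpl1603 and SPAC1F12.06c, which were lower. The sense strand of a nested gene is the antisense strand of its host. Sense counts of nested genes can therefore not be told apart from antisense transcripts of the host here.

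Stress genes depended on the atypical libraries. The small heat shock protein gene hsp16 (SPBC3E7.02c) had 2088, 0 and 2286 CPM in the libraries labelled triple mutant, against 226, 329 and 179 CPM in WT, and was called without both atypical libraries (log2 fold change 2.78 ± 0.61, adjusted p 0.0141) and not with all (adjusted p 0.395). The metallothionein gene zym1 (SPAC22H10.13) had 917, 0 and 719 CPM, against 84.1, 35.5 and 14.7 CPM in WT (log2 fold change 3.60 ± 1.01, adjusted p 0.0355 without both atypical libraries, and adjusted p 0.1 with all). In both genes the deep libraries exceeded every WT library, and prf1Δ had like levels, with 1793, 2054 and 2071 CPM of hsp16 and 956, 625 and 836 CPM of zym1. The other 10 heat shock genes and 17 Sty1-Atf1 genes were not called in either fit. Of the stress genes not called, the glutathione S-transferase gene gst2 had 1633, 0 and 1419.9 CPM, against 562, 374 and 153 CPM in WT (adjusted p 0.695). In each fit 10 of the 11 heat shock genes and 14 of the 18 Sty1-Atf1 genes had a log2 fold change above the median of all genes. With hrp1Δhrp3Δ replicate 1 left out as well, 2 of 11 heat shock genes were higher. Of 18 Sty1-Atf1 genes 3 were then higher and 1 lower, against 222 and 1372 of 4962 over all genes. With that fit scaled on protein-coding genes 6 heat shock and 10 Sty1-Atf1 genes were higher and none lower, against 505 and 535 over all genes. The sum of the ribosomal protein genes (141 genes) was 158466, 59203 and 154431 CPM in the libraries labelled triple mutant, against 157194, 196175 and 469234 CPM in WT. WT replicate 3 thus stood apart from the other WT libraries and from both deep libraries labelled triple mutant. In hrp1Δhrp3Δ, which enters the same fit, the sum was 450669, 190713 and 259007 CPM. The median log2 fold change of the ribosomal protein genes was −2.20 with all libraries and −0.40 without both atypical libraries, and rpl1603 was the 1 gene of the list called. Of the G1/S genes of the MBF factor, res1 (SPBC725.16), a subunit of MBF itself, was called lower (14.0, 0 and 23.2 CPM, against 87.8, 87.0 and 8.62 CPM in WT, log2 fold change −2.38 ± 0.78, adjusted p 0.048). It was also called without both atypical libraries, but with all libraries the call was lost when the scaling was set on protein-coding genes. WT replicate 3 lay below both deep libraries at res1. The endoglucanase gene eng1 (SPAC821.09), which acts in cell separation, had 22.6, 0 and 29.8 CPM, against 83.4, 67.2 and 19.3 CPM in WT, and fell without both atypical libraries (adjusted p 0.0229, against 0.0537 with all). Of the exosome genes rrp43, rrp45 and rrp46 were called lower with all libraries, and none without both atypical libraries. Sense counts of the elongation factor, remodeler, heterochromatin, histone, glycolysis, iron uptake and phosphate genes and of the Tf2 retrotransposons had no member called in either fit. The histone H3 genes and the Tf2 copies are near-identical, so their counts are uncertain.

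Entries outside protein-coding genes, mainly long noncoding RNAs, were also changed. Of 1268 such entries tested on the annotated strand 115 (9.07%) rose and 25 (1.97%) fell with all libraries, against 0.915% and 3.17% of protein-coding genes, and the difference between the shares was not tested. Long noncoding RNA entries made up most of them, with 104 of 1123 higher and 24 lower, and 151 of 1189 higher and 12 lower without both atypical libraries (12.3% and 0.960% over all such entries). Of 22 pseudogenes 6 rose and none fell. The reverse complements of long noncoding RNA entries had 46 of 949 higher and 31 lower (5.33% and 3.26% over all such reverse complements). Such RNAs are often annotated opposite coding genes, and which of them are the same transcripts as the antisense features was not examined here.

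By the labels, the comparison with prf1Δ asks what loss of both remodelers adds where Prf1 is lost, though of hrp1 and hrp3 only hrp3 was at 0 in every library labelled triple mutant, and hrp1 did not separate both groups. No feature was called between the libraries labelled triple mutant and prf1Δ by edgeR, whether with all libraries or without both atypical libraries (0 of 3341 antisense features and 0 of 4918 sense genes, 0%, with 36 and 21 at an unadjusted p under 0.05). With limma voom and library quality weights 6 antisense features and 9 sense genes were called, and edgeR called 2 and 1 without hrp1Δhrp3Δ replicate 1, and 0 and 1 without WT replicate 3. Over all antisense features the median log2 fold change from prf1Δ was −0.09, and −0.01 without both atypical libraries. The smallest p-values were those of hrp3 itself, with 0 sense CPM in all 3 libraries labelled triple mutant, against 134, 114 and 42.3 CPM in prf1Δ (adjusted p 0.14), and of its antisense feature, with 0 CPM, against 22.0, 12.6 and 12.2 CPM (adjusted p 0.14). The next was antisense ayr1 (SPAC23D3.11, a lipid biosynthesis enzyme), with 1.31, 0 and 6.09 CPM in the libraries labelled triple mutant, against 0 CPM in all 3 prf1Δ libraries (adjusted p 0.672). Since hrp3, with counts only in prf1Δ of the pair, did not pass, the absence of calls does not show that both mutants were alike. Of the sense genes named above, nmt1 had a log2 fold change of 1.38 ± 0.65 over prf1Δ (adjusted p 1).

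By the labels, the comparison with hrp1Δhrp3Δ asks what loss of Prf1 adds where both remodelers are lost, though with all libraries prf1 itself was not called between these groups (45.1, 0 and 43.2 CPM in the libraries labelled triple mutant, against 3.15, 111 and 119 CPM in hrp1Δhrp3Δ, adjusted p 0.602 with all libraries, and 0.00444 without triple-mutant replicate 2, WT replicate 3 and hrp1Δhrp3Δ replicate 1). With all libraries 24 of 3341 antisense features (0.718%) exceeded hrp1Δhrp3Δ and 2 (0.0599%) lay below it, and 9 of 4918 sense genes (0.183%) were higher and 1 (0.0203%) lower. Without both atypical libraries 31 antisense features were higher (0.784%) and none lower, and 12 sense genes were higher (0.242%) and 4 lower (0.0807%). With the scaling set on protein-coding genes 3 antisense features and no sense gene were called, and without both atypical libraries as well none of either. Leaving out triple-mutant replicate 1, 2 or 3 gave 2, 4 and 1 antisense calls and 0, 1 and 0 sense calls, and leaving out hrp1Δhrp3Δ replicate 1, 2 or 3 gave 101, 4 and 0 antisense calls and 18, 3 and 0 sense calls. Leaving out WT replicate 2 or 3 gave 19 and 95 antisense and 4 and 25 sense calls, and leaving out a prf1Δ library gave 2 to 6 antisense and 0 to 1 sense calls. The smallest p-value was that of antisense tlh2, with 46.8, 0 and 33.5 CPM in the libraries labelled triple mutant and 20.8, 43.7 and 49.1 CPM in prf1Δ, against 0 CPM in all 3 hrp1Δhrp3Δ libraries (adjusted p 0.00937). Antisense mbx2 (SPBC317.01, a MADS-box transcription factor) had 15.5, 0 and 15.5 CPM in the libraries labelled triple mutant and 20.0, 10.9 and 26.3 CPM in prf1Δ, against 0 CPM in every hrp1Δhrp3Δ and WT library (adjusted p 0.0115 over hrp1Δhrp3Δ, at least 45.9-fold over WT). Antisense pil1 (SPCC736.15, a protein of the eisosomes beneath the plasma membrane) had 14.8, 0 and 17.8 CPM, against 0, 0.962 and 0.270 CPM in hrp1Δhrp3Δ (log2 fold change 4.56 ± 0.75, adjusted p 0.0198). At these 3 loci both deep libraries labelled triple mutant exceeded every hrp1Δhrp3Δ library.

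The interaction on the log2 scale, triple mutant less prf1Δ less hrp1Δhrp3Δ plus WT, asks, by the labels, whether the combined loss differs from the sum of both losses. With all libraries it was below 0 in 328 antisense features (9.82%) and above 0 in 1 (0.0299%), with a median of −2.15, and 3 sense genes lay above and 3 below (0.0610% each). Without both atypical libraries 423 antisense features (10.7%) lay below and 1 (0.0253%) above, with 3 sense genes on each side (0.0605% each). The count was 0 without triple-mutant replicate 1, 2 or 3 alone, without prf1Δ replicate 1, 2 or 3, and without WT replicate 1 or 2, but 665 without hrp1Δhrp3Δ replicate 1 and 1047 without WT replicate 3. The sense count was 0 without any one of the triple-mutant or prf1Δ libraries and without WT replicate 1 or 2, 17 and 21 without hrp1Δhrp3Δ replicate 1 and 2, and 27 without WT replicate 3. With the scaling set on protein-coding genes 537 antisense features lay below 0, and 8 without both atypical libraries as well. An example is antisense tti1 (SPCC622.13c), with 30.3, 0 and 17.9 CPM in the libraries labelled triple mutant, 19.6, 19.2 and 31.8 CPM in prf1Δ and 7.51, 29.3 and 17.2 CPM in hrp1Δhrp3Δ, against 0 CPM in all 3 WT libraries. The deep libraries labelled triple mutant lay within the range of hrp1Δhrp3Δ and prf1Δ there, and all exceeded WT.

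The count of calls against WT varied with the libraries kept, the estimate of spread and the tool. Leaving out hrp1Δhrp3Δ replicate 1 along with both atypical libraries lowered the biological coefficient of variation, the relative spread between replicates, to 0.267, against 0.649 with all and 0.511 without both. Without these 3 libraries 2276 antisense features rose (57.5%) and 43 fell (1.09%), and 222 sense genes rose (4.47%) and 1372 fell (27.7%). The median log2 fold change of sense genes was −0.50 in that fit. The excess of sense falls depended on the scaling. With it set on protein-coding genes, the same libraries gave 505 of 4962 sense genes higher and 535 lower, with a median of −0.04. Antisense features called were then 2612 higher and 15 lower. With all libraries and scaling on protein-coding genes 1246 antisense features rose (37.3%) and 2 fell (0.0599%). In the fit of the 6 libraries of the triple mutant and WT alone 17 antisense features and 11 sense genes rose and 2 sense genes fell. In all settings drawn in the plot of calls by setting, more antisense features were higher than lower.

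**Figure D5:**
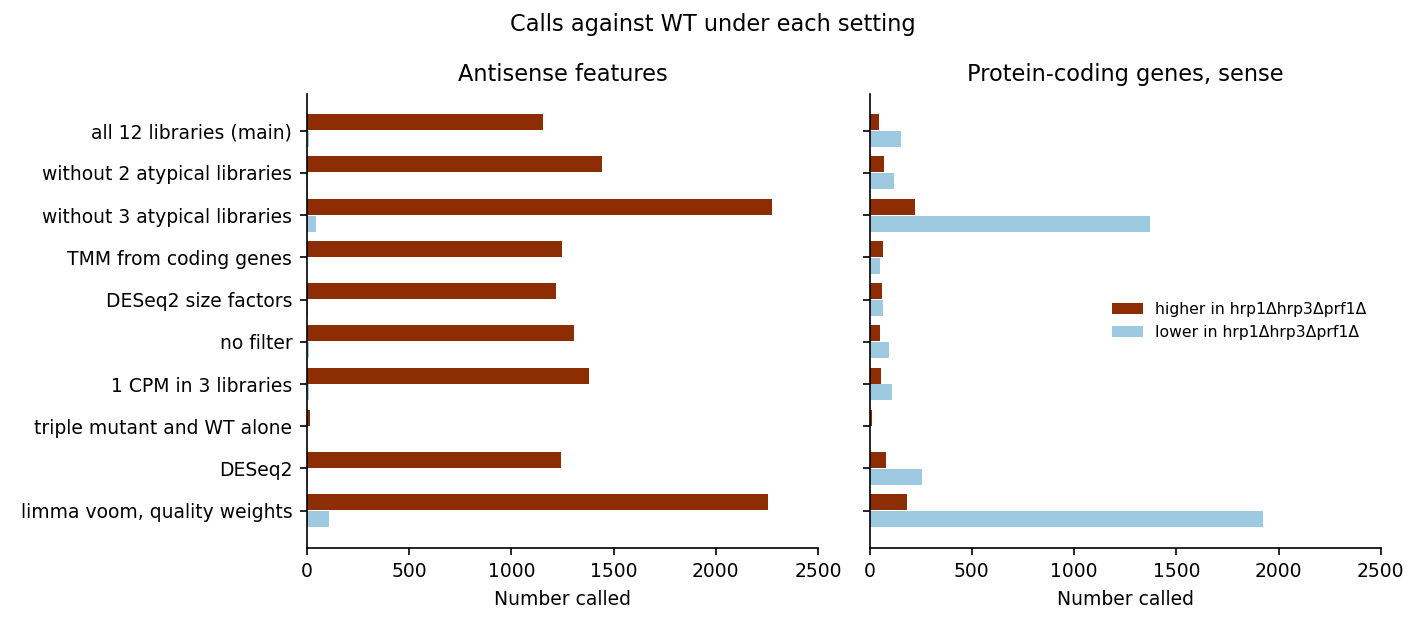
Number of antisense features (left) and protein-coding genes on the sense strand (right) called against WT at an adjusted p under 0.05 (x axis) under each of 10 settings (y axis), with those higher in the libraries labelled hrp1Δhrp3Δprf1Δ above those lower. Among the settings drawn, antisense features called higher ranged from 17 with the triple mutant and WT alone to 2276 without 3 atypical libraries, and sense genes called lower from 2 to 1925.

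Genes that mark the mating types were examined as a check of the strains, which are labelled h+. The M-factor receptor gene map3, an h+ gene, had 10.1, 0 and 7.12 CPM in the libraries labelled triple mutant, against 8.01, 6.35 and 0 CPM in WT, and the P-factor gene map2 had 0.778, 0 and 2.67 CPM, against 0.707, 1.87 and 0 CPM. The P-factor receptor gene mam2, an h- gene, had 14.8, 0 and 22.3 CPM, against 7.77, 2.99 and 1.01 CPM in WT, and the M-factor transporter gene mam1 had 21.8, 0 and 41.9 CPM, against 53.9, 48.5 and 1.01 CPM. The M-factor genes, also h- genes, were mixed. In WT, mfm1 and mfm3 had no counts. In the libraries labelled triple mutant, mfm1 had 0, 0 and 0.89 CPM and mfm3 had 1.56, 0 and 0 CPM. Both had too few counts to be tested. For mfm2 the values were 8.56, 0 and 6.23 CPM, against 2.99 to 4.56 CPM in WT. Some markers of both kinds were thus present at low levels in both groups, but not every h- gene was found in WT. None of the genes tested was called, and the mating type itself was not tested.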

How the data were processed

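The deposited tables of the authors, 1 per library, hold estimated counts and TPM made with kallisto against Ensembl transcripts of build ASM294v2 and their reverse complements, after FastQC, with no normalization between libraries. Each holds 13994 entries, and 6851 of 6997 transcripts matched the RefSeq annotation of ASM294v3, which gave names, types, neighbours and overlaps only. Of coding entries, 99.9% had lengths that are multiples of 3, so lengths are coding lengths and reads in untranslated regions were not counted.

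Estimated counts were rounded and tested two-sided by quasi-likelihood in edgeR 4.0.16 under R 4.3.3 over the 12 libraries of experiment D with a term per group, filterByExpr (minimum count 10, minimum total 15), TMM factors from all features, a prior count of 0.125, and Benjamini-Hochberg adjustment over all features, with calls at an adjusted p under 0.05. Errors of log2 fold changes are standard errors. CPM carry no scaling factor. The procedure was tested on simulated counts in which all libraries shared the same profile apart from the changes set. That test did not cover the content of the atypical libraries. A group at 0 was given a floor of 3 counts over its libraries.

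The members and lists were chosen with earlier results of these data known. Named genes were the deleted genes and ura4, genes the study named, the 10 largest rises and falls per strand (5 falls for antisense features) among features called without both atypical libraries with a mean of at least 8 CPM and no overlap of the deep libraries with WT replicates 1 and 2, up to 4 members of each list, the largest entries of the atypical libraries, and the 3 smallest p-values of each further comparison. Tested list members not named with values were not called or are counted in the text, and 1 list and 1 gene name are not reported here. Alternatives covered the libraries, scaling, filter, tool (DESeq2 1.42.0, voom of limma 3.58.1) and replicate block. The settings that join fewer libraries with scaling on protein-coding genes, and those with voom or that scaling in the comparisons with prf1Δ and hrp1Δhrp3Δ and the interaction, were chosen after seeing the data.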

Additional observations from a re-analysis of the deposited data

Results flagged for a closer look

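The interaction differed from 0 in 329 antisense features and in 6 protein-coding genes with all libraries, a difference on the log2 scale between the contrasts of the libraries by their labels. The 3 smallest p-values belonged to antisense hrp1 (−11.06), antisense tti1 (−9.10) and sense SPCC1442.11c (−9.37), each with an edgeR adjusted p of 0.0274. WT held no whole count of any of them, so these log2 values depend on the prior count and are not sizes of effect. Sense SPCC1442.11c had 6.23, 0 and 4.90 CPM in the libraries labelled hrp1Δhrp3Δprf1Δ, 4.62, 6.18 and 10.2 CPM in prf1Δ and 11.7, 14.6 and 21.6 CPM in hrp1Δhrp3Δ, against 0 CPM in WT. Antisense hrp1 had 21.8, 0 and 14.7 CPM in the libraries labelled hrp1Δhrp3Δprf1Δ, 15.6, 19.7 and 36.3 CPM in prf1Δ and 60.8, 20.8 and 30.7 CPM in hrp1Δhrp3Δ, against 0 CPM in WT. Without triple-mutant replicate 2 alone no feature passed, without WT replicate 3 alone 1047 antisense features did, and the part of either library in the result beyond these counts was not tested.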

How the results depend on the processing

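Against WT, antisense calls numbered 2319 without 3 atypical libraries, 17 with the triple mutant and WT alone, 2363 with limma voom and quality weights, 2627 without 3 atypical libraries with scaling on protein-coding genes, and 726 without features of overlapping genes, against 1162. Sense calls numbered 1594 without 3 atypical libraries, 118 with scaling on protein-coding genes, 127 with DESeq2 size factors, 13 with both groups alone, 336 with DESeq2, 2109 with voom, and with scaling on protein-coding genes 127 without both and 1040 without 3 atypical libraries, against 201. Leaving out 1 library of either group gave 534 to 1605 antisense and 29 to 175 sense calls, 1 of the other groups 935 to 1803 and 91 to 508 (the highest without hrp1Δhrp3Δ replicate 1), and, for either group, a ratio of antisense shares of 3.49 to 4.52. The shift between the antisense and sense medians was 0.82 with both groups alone, against 2.86. The cause of these changes was not tested.

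Against prf1Δ, voom called 6 antisense features and 9 genes, against 0 and 0, and leaving out 1 library of either group gave 0 of either, hrp1Δhrp3Δ replicate 1 gave 2 and 1, and WT replicate 3 gave 0 and 1. Against hrp1Δhrp3Δ, antisense calls were 524 without 3 atypical libraries, 802 with voom, 3 with scaling on protein-coding genes and 0 with that scaling without both atypical libraries, against 26, and sense calls were 16 without both, 847 without 3, 941 with voom and 0 with that scaling in either set, against 10. Leaving out 1 library of either group gave 0 to 101 and 0 to 18, and WT replicate 3 gave 95 and 25. For the interaction, antisense calls were 1135 without 3 atypical libraries, 1561 with voom, 538 with scaling on protein-coding genes and 8 with that scaling without both, against 329, and sense calls were 89, 512 and, with that scaling without both, 0, against 6. Leaving out 1 library gave 0 to 1047 and 0 to 27.

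Whether replicate numbers pair the libraries was not settled. The correlation of deviations from group means between same-numbered triple-mutant and WT libraries was 0.03, −0.04 and −0.03. It was −0.02, −0.08 and −0.07 with prf1Δ and −0.08, −0.02 and 0.12 with hrp1Δhrp3Δ. Libraries with unlike numbers gave −0.16 to 0.18. The group means include triple-mutant replicate 2 and WT replicate 3, so low correlations cannot exclude pairing. With the replicate block 841 antisense features and 77 genes were called against WT, 2 and 0 against hrp1Δhrp3Δ, 0 and 0 against prf1Δ, and 222 and 5 in the interaction, and the exact p of the antisense share was 0.25.

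For single features, 6 genes turned to higher and called, all without 3 atypical libraries with scaling on protein-coding genes: fft3 (log2 fold change 0.65), ssa2 (0.73), plr1 (1.25), suc22 (0.73), eno101 (0.65) and gpm1 (0.85). The few counts of triple-mutant replicate 2 limit every value that includes it.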
